A study of Homo sapiens with 2 samples.

Results

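The transcription factor genes followed here direct early lineages, and there are 9 of them: GATA4, GATA6, FOXA2, CDX1, CDX2, EOMES, TBXT, MIXL1 and HAND1. They were chosen by name from a list of endoderm, mesoderm and trophectoderm factors, and all were found among the 62700 genes measured. The samples were TCam-2 cells, an established human line derived from a testicular seminoma, transduced with FLAG-tagged DDX53, a DEAD-box RNA helicase, and labelled as overexpressing it. This single group held 2 replicate libraries of polyadenylated RNA. Cells with a GFP construct and untransduced cells, the study's controls, were not analysed here, so no value below measures an effect of DDX53. Nothing in the sources used here states the promoter of the construct or whether the replicates came from separate cultures.

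These factors sit near the top of the programmes that divide the early embryo. GATA4, GATA6 and FOXA2 are used by primitive and definitive endoderm. TBXT, MIXL1 and EOMES mark the primitive streak, from which mesoderm and definitive endoderm arise, and HAND1 acts in lateral mesoderm, heart and trophoblast. CDX2 specifies trophectoderm and later, with CDX1, the posterior body axis and the intestinal epithelium. Seminoma resembles primordial germ cells, which hold a pluripotency network together with SOX17, and yolk sac tumours and choriocarcinomas are the germ cell tumours that follow endodermal and trophoblast fates.

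The libraries held 24137664 reads in genes in replicate 1 and 22198929 in replicate 2, and DDX53 itself had 146 and 147 reads. Counts differed between them by more than sampling noise, with a chi-square of 4.74 per degree of freedom over 15299 genes, so they were treated as 2 libraries. The marker lists were chosen with earlier results of these data known. All 11 listed seminoma markers reached 1 CPM (reads scaled to the library's total in genes) in both libraries, with POU5F1 at 1906 ± 21.1 CPM (SD, n = 2). That level was reached by 61.7% of protein-coding genes. Of 4 embryonal carcinoma markers 3 reached it, DNMT3B at 111 ± 18.4 CPM, TDGF1 at 123 ± 5.03 CPM and GDF3 at 6.93 ± 0.75 CPM (SD, n = 2), and SOX2 was under 1 CPM in replicate 1, with 24 reads in each library. Levels are compared between genes only as RPKM, the CPM of a gene divided by the kb of its merged exons.

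Promoter sequence was examined for 6 of the factors, as 300-base windows of RefSeq on GRCh38.p14. Each window runs from 250 bases before a transcription start to 50 after it. No window of GATA4, CDX1 or FOXA2 was examined, so the factors with the highest RPKM, GATA4 and CDX1, are missing here. The stretch from 40 to 11 bases before each start is shown because it is where a TATA box would lie, and because it sets factors with high and low reads side by side. Capitals mark TATAA, read 5′ to 3′ on the strand of the gene.
HAND1 (chr5:154478238-154478267, minus strand): gccgcggtcttaTATAAgccagatccgcag
MIXL1 (chr1:226223624-226223653, plus strand): ccgggagggTATAAgtgcggcccgcgcccc
EOMES (chr3:27722334-27722363, minus strand): catcctgccttTATAAtaaggccaccggag
TBXT, start 1 (chr6:166168666-166168695, minus strand): caagtcctgttttTATAAgagagcgaggag
TBXT, start 2 (chr6:166167862-166167891, minus strand): gcggctctatttatggggagggcactgaat
GATA6 (chr18:22169549-22169578, plus strand): ctctctcctttttattcaccagcagcgcgg
CDX2 (chr13:27969326-27969355, minus strand): tgtctgtgtcattactaatagagtcttgta
TATAA occurred in the stretch for HAND1, MIXL1, EOMES and the first start of TBXT. Its first T lay from 27 to 31 bases before the RefSeq start. It was absent in GATA6, CDX2 and the second start of TBXT. Among 35116 promoter windows of the same table, 4.06% held it there on the gene's strand and 5.00% on either strand (TATAA or TTATA). The motif was chosen after the sequences were seen, and a match describes letters only. HAND1 and MIXL1, with TATAA, reached 1 CPM in both libraries, whereas EOMES and TBXT, also with TATAA, did not. The 7 windows were rich in CpG, with an observed over expected ratio from 0.644 in HAND1 to 1.01 at the first start of TBXT, against a median of 0.579 over the table.

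GATA4, CDX1, HAND1, MIXL1, FOXA2 and GATA6, 6 of the factors, were expressed at 1 CPM or more in both libraries. CDX2, EOMES and TBXT stayed below that level with 1 to 9 reads per library. The same threshold was passed by 21.7% of all genes and by 61.7% of the 19831 protein-coding genes, so 6 of 9 is close to the share among protein-coding genes. The mean RPKM of the 9 genes spread from 8.81 in GATA4 to 0.0572 in EOMES, with a median of 1.04, against 1.29 over all protein-coding genes. None of the 9 had 0 reads in both libraries.

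**Figure D1:**
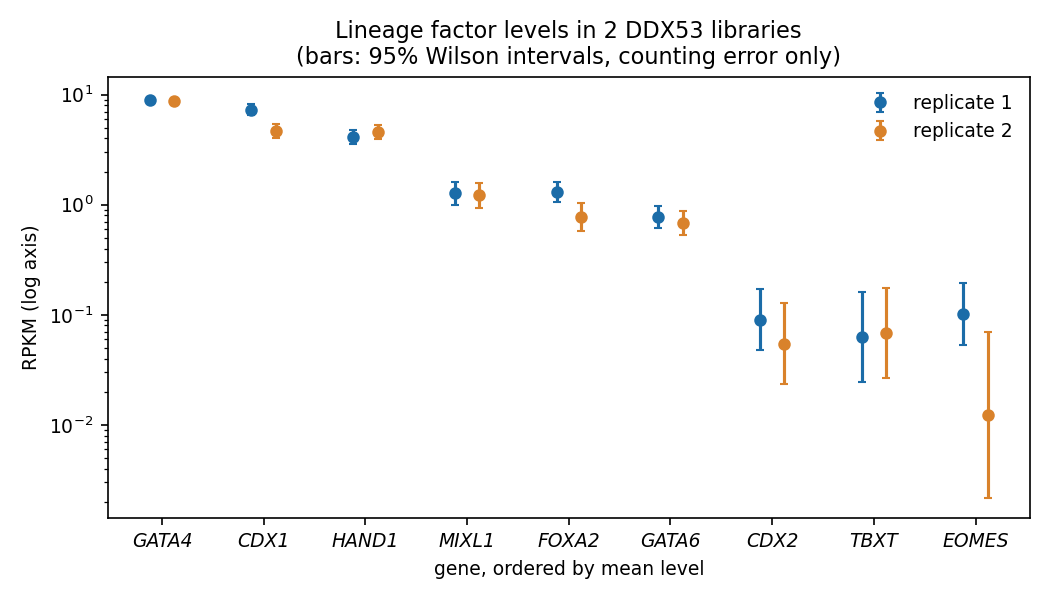
RPKM from merged exon lengths (vertical log axis) for each factor, ordered by mean level, in replicate 1 (blue) and replicate 2 (orange); bars are 95% Wilson intervals of the reads and cover counting error only. GATA4, CDX1 and HAND1 lie above 4 in both libraries, MIXL1, FOXA2 and GATA6 lie near 1, and CDX2, TBXT and EOMES lie near or below 0.1.

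Among the endoderm factors, GATA4 (ENSG00000136574.19, chromosome 8, GRCh38 11676959 to 11760002, plus strand) was by far the highest. This zinc finger factor acts in primitive endoderm, heart and gonadal somatic cells. In replicate 1 its 960 reads gave 39.8 CPM (95% Wilson interval, 37.3 to 42.4), and in replicate 2 its 855 reads gave 38.5 CPM (36.02 to 41.2). Both libraries were alike within counting error, and 63.3% of the 12229 protein-coding genes at 1 CPM or more lay below it per kb. GATA6 (ENSG00000141448.11, chromosome 18, 22169443 to 22202528, plus strand), which specifies primitive endoderm, had 74 reads or 3.07 CPM (2.44 to 3.85) and 60 reads or 2.703 CPM (2.10 to 3.48). Its intervals overlapped too, and 10.9% of those protein-coding genes lay below it. Per kb, GATA4 exceeded GATA6 11.5-fold in replicate 1 (95% exact interval from the reads, 9.09 to 14.8) and 12.7-fold in replicate 2 (9.73 to 16.7).

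FOXA2 (ENSG00000125798.15, chromosome 20, 22581005 to 22585455, minus strand), a forkhead factor that opens chromatin in definitive endoderm, had 82 reads in replicate 1 and 45 in replicate 2. These were 3.40 CPM (95% Wilson interval, 2.74 to 4.22) and 2.03 CPM (1.52 to 2.71), with replicate 1 the higher and the intervals apart. FOXA1 was without a read in both, so up to 3 reads in each are allowed. Against that limit the FOXA2 reads stood 41.8-fold higher per kb in replicate 1 and 22.9-fold higher in replicate 2. These ratios leave out the counting error of FOXA2 itself, so they are not lower bounds. FOXA3 had 20 and 32 reads, so FOXA2 exceeded it 3.45-fold per kb in replicate 1 (95% exact interval, 2.10 to 5.94), while in replicate 2 the ratio of 1.18 (0.736 to 1.93) did not separate them.

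Of the primitive streak factors only MIXL1 reached the threshold. MIXL1 (ENSG00000185155.12, chromosome 1, 226223618 to 226227054, plus strand), a homeobox gene of mesendoderm, had 62 reads or 2.57 CPM (95% Wilson interval, 2.0 to 3.29) and 55 reads or 2.48 CPM (1.90 to 3.22). The 2 libraries were close. TBXT (ENSG00000164458.10, chromosome 6, 166157656 to 166168700, minus strand), the Brachyury gene, had 4 reads in each, at 0.166 CPM (0.0644 to 0.426) and 0.180 CPM (0.0701 to 0.463). EOMES (ENSG00000163508.13, chromosome 3, 27715949 to 27722711, minus strand), a T-box gene of streak and trophoblast, had 9 reads or 0.373 CPM (0.196 to 0.709) in replicate 1 and 1 read or 0.0450 CPM (0.00795 to 0.255) in replicate 2. At this depth the order of TBXT and EOMES could not be told.

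HAND1 (ENSG00000113196.3, chromosome 5, 154474972 to 154478264, minus strand), a basic helix-loop-helix factor, had 173 reads in replicate 1 and 177 in replicate 2. These were 7.17 CPM (95% Wilson interval, 6.18 to 8.32) and 7.97 CPM (6.88 to 9.24). It was slightly higher in replicate 2 with overlapping intervals, and 44.5% of the expressed protein-coding genes lay below it per kb. Its paralog HAND2, of heart and limb mesoderm, had 145 and 116 reads. Per kb HAND1 exceeded HAND2 2.47-fold in replicate 1 (95% exact interval, 1.97 to 3.10) and 3.16-fold in replicate 2 (2.49 to 4.03).

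The caudal homeobox pair was split. CDX1 (ENSG00000113722.18, chromosome 5, 150166795 to 150184558, plus strand) had 310 reads in replicate 1 and 181 in replicate 2, that is 12.8 CPM (95% Wilson interval, 11.5 to 14.4) and 8.15 CPM (7.05 to 9.43). The intervals did not overlap. CDX2 (ENSG00000165556.10, chromosome 13, 27962137 to 27971139, minus strand) had 9 reads or 0.373 CPM (0.196 to 0.709) and 5 reads or 0.225 CPM (0.0962 to 0.527). Per kb CDX1 exceeded CDX2 80.8-fold in replicate 1 (95% exact interval, 42.0 to 178) and 84.9-fold in replicate 2 (35.7 to 265). Both ratios rest on these few CDX2 reads. CDX4, the remaining family member, had 1 and 3 reads.

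Ordered by mean RPKM, the factors ran GATA4, CDX1, HAND1, MIXL1, FOXA2, GATA6, CDX2, TBXT, EOMES. Neighbours had separate 95% intervals in both libraries at 3 of the 8 steps: GATA4 over CDX1, HAND1 over MIXL1 and GATA6 over CDX2. GATA6 exceeded CDX2 8.59-fold in replicate 1 (95% exact interval, 4.29 to 19.5) and 12.5-fold in replicate 2 (5.08 to 40.01), the widest step of the order by its lower bounds. CDX1 exceeded HAND1 1.77-fold in replicate 1 (1.47 to 2.15) and 1.01-fold in replicate 2 (0.817 to 1.25), so that step rested on 1 library. MIXL1 and FOXA2, FOXA2 and GATA6, and the 3 lowest genes were likewise not separated in both libraries. Summed TPM per gene, the authors' salmon values, kept 5 of the 9 places and exchanged MIXL1 with FOXA2 and CDX2 with TBXT.

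The differences between the replicates were then set against counting noise. CDX1 and FOXA2 were lower in replicate 2, and the other 4 factors that had enough reads to be tested did not pass the test. CDX1 in replicate 2 was at 0.635 of its CPM in replicate 1 (95% exact interval, 0.526 to 0.765), with an adjusted p of 4.0e-05 in edgeR's exact binomial test. FOXA2 was at 0.597 of its CPM in replicate 1 (0.405 to 0.869), with an adjusted p of 0.045 in the same exact test. In bulk RNA, fewer cells of a type and less RNA per cell cannot be told apart. The test, two-sided and adjusted by Benjamini-Hochberg over 15299 genes, compares 1 library with 1 library and not conditions. It called 6.35% of the genes lower in replicate 2, 6.78% higher and 13.1% in either direction, beside 2 of 6 factors lower and 0 higher.

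GATA4 had a ratio of 0.968 (95% exact interval, 0.882 to 1.06), GATA6 of 0.882 (0.617 to 1.26), MIXL1 of 0.965 (0.658 to 1.41) and HAND1 of 1.11 (0.897 to 1.38). The narrow interval of GATA4 follows from its depth, whereas for GATA6 and MIXL1 ratios from 0.658 to 1.26 lay within counting error. Of the 3 untested factors, CDX2 had a ratio of 0.604 (0.159 to 2.01), TBXT of 1.09 (0.203 to 5.84) and EOMES of 0.121 (0.00276 to 0.872). Of the 6 factors tested, 5 had a lower value in replicate 2, beside 52.1% of all genes tested. FOXA2's call was lost when every gene with a read was tested, with an adjusted p of 0.076 in the exact test over 26504 genes.

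**Figure D2:**
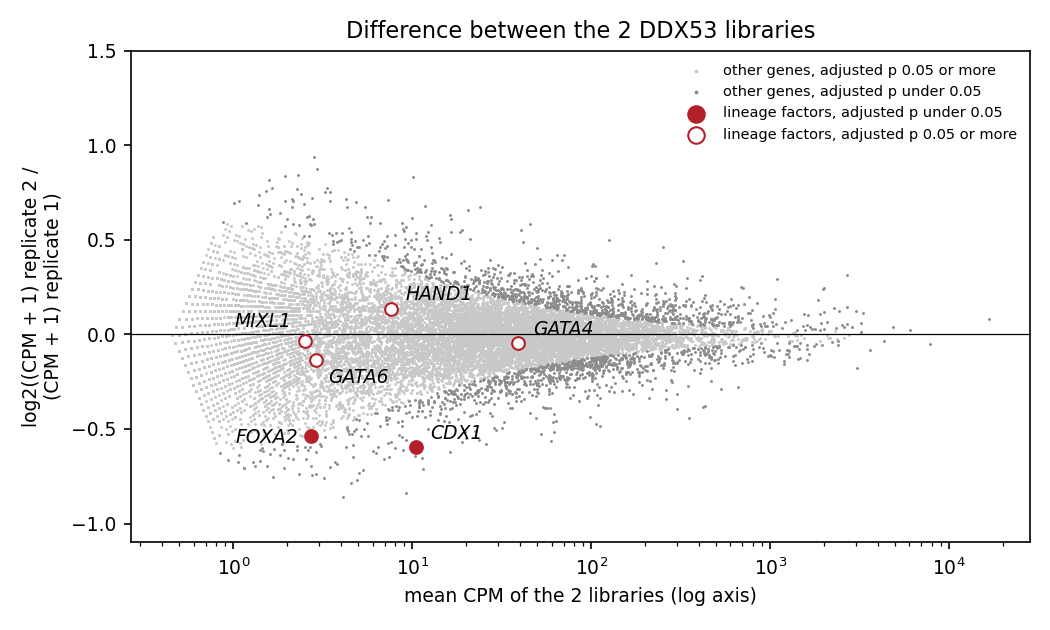
Log2 ratio of CPM + 1 in replicate 2 to replicate 1 (vertical) against mean CPM of the 2 libraries (horizontal log axis) for the 15299 genes tested; dark grey and filled red points have an adjusted p under 0.05 in the exact binomial test. CDX1 at -0.60 and FOXA2 at -0.54 lie at the lower edge of the genes of their level, and GATA4, GATA6, MIXL1 and HAND1 lie between -0.13 and 0.14.

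Most factors had transcript values above 0 for only 1 isoform. Of 26 transcripts in the authors' TPM table that GENCODE 29 links to these genes, 13 were above 0 in a library. Transcripts linked to any gene held 94.8% of the TPM in each library. Isoforms outside that release are not counted in the numbers and shares below. GATA6, CDX1, CDX2, EOMES, MIXL1 and HAND1 each had a single transcript above 0. For CDX1 and HAND1 this was the only outcome possible, with 1 transcript listed for each. CDX2 and EOMES had at most 9 reads in a library. In GATA4, 3 of 8 transcripts were above 0. GATA4-206, which starts 27.2 kb upstream of GATA4-201, had 10.9 TPM in replicate 1 and 6.85 TPM in replicate 2, or 57.7% and 38.2% of the gene's TPM. GATA4-201 had 5.81 and 6.83 TPM, and GATA4-207, a shorter transcript starting further downstream, had 2.14 and 4.23 TPM. The sum was nearly level, at 18.8 and 17.9 TPM, while the leading transcript held a smaller share in replicate 2.

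The 2 FOXA2 transcripts start at different positions. FOXA2-202 had 1.20 TPM in replicate 1 and was listed at 0 in replicate 2, and FOXA2-201 had 0.994 and 1.40 TPM. TBXT was listed above 0 through TBXT-204, a shorter model, at 0.153 and 0.219 TPM, and through TBXT-203 at 0.0393 TPM in replicate 2 alone. The depth behind a transcript's TPM is unknown, so these values carry no interval and were not tested. Recovered reads ran from 0.805 to 1.21 times the number predicted from TPM times length for 8 of the factors, and TBXT had 1.79 times the prediction in replicate 1 on 4 reads.

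**Figure D3:**
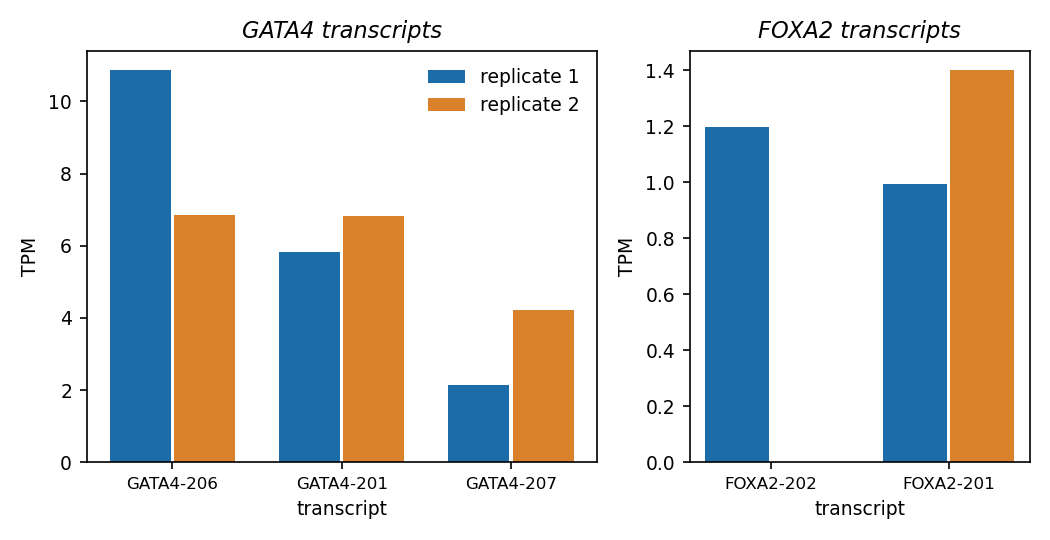
TPM of each transcript above 0 of GATA4 (left) and FOXA2 (right) in replicate 1 (blue) and replicate 2 (orange), 1 bar per library from 0. GATA4-206 stands at 10.9 and 6.85 TPM, and FOXA2-202 has a bar of 1.20 TPM in replicate 1 and none in replicate 2.

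Genes that overlap a factor or start within 5 kb of its start were examined, because reads can be shared there. GATA6 and FOXA2 had such neighbours in GENCODE 29, and the other 7 factors had none. On the strand opposite GATA6 lie GATA6-AS1, with 2 and 1 reads, and 3 further genes with no read in either library. FOXA2 overlaps AL121722.1, a protein-coding model on the same strand, whose transcripts were listed at 0 TPM in both libraries. The libraries were strand-specific per the labels, but the strand setting of the counting is not given in the sources used here.

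The wider families of these factors were also described. Of 5 further GATA family genes 4 reached 1 CPM in both libraries, beside 61.7% of protein-coding genes. None of the 4 was called apart by edgeR's exact binomial test, beside 13.1% of all genes tested. At an unadjusted p under 0.05 in that test there were 0, beside 3694 of the 15299 genes tested. GATA3 and GATA2, trophoblast and blood factors, had 9.73 ± 0.187 and 7.77 ± 0.0898 CPM (SD, n = 2 each), and GATA5 had 1.78 ± 0.291 CPM (SD, n = 2). GATA1, of red cells, had no read. Per kb over both libraries, GATA4 exceeded GATA3 3.11-fold (95% exact interval, 2.81 to 3.46), and GATA3 exceeded GATA6 3.86-fold (3.18 to 4.72), whereas GATA6 and GATA5 were not separated, at 1.06-fold (0.802 to 1.41). Of the GATA cofactors, ZFPM1 had 6.01 and 4.37 CPM and ZFPM2 had 0 and 1 read.

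Of 15 further T-box genes, 6 reached 1 CPM in both libraries, beside 61.7% of protein-coding genes. TBX3, known from pluripotent cells and limb, had 27.9 ± 0.0311 CPM (SD, n = 2), and MGA, a repressor of germ cell genes, had 66.9 ± 7.76 CPM (SD, n = 2). Per kb TBX3 exceeded EOMES 45.9-fold in replicate 1 (95% exact interval, 24.0 to 101) and 380-fold in replicate 2 (68.0 to 15047), where EOMES had 1 read. It exceeded TBXT 71.3-fold over both libraries (36.1 to 166). MGA was the only one of 7 tested T-box genes called apart, beside 13.1% of all genes tested. It was lower in replicate 2, at 72.4 and 61.4 CPM (adjusted p = 0.00027, edgeR's exact binomial test).

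Other genes of the 3 lineages were uneven. Of 19 endoderm genes 4 reached the threshold, beside 61.7% of protein-coding genes. The 4 were SOX17, also a germ cell factor, at 145 ± 2.75 CPM, and the basement membrane and matrix genes COL4A1, LAMB1 and SPARC. SOX17 exceeded GATA4 per kb 7.0-fold over both libraries (95% exact interval, 6.64 to 7.37). AFP and TTR, secreted proteins of yolk sac and liver, CER1 and FOXA1 had no read in either library, and HNF4A had 7 and 4. COL4A1 and SPARC were called higher in replicate 2 among 8 genes tested, beside 6.78% of all genes tested. The median of the list was 0.0400 RPKM.

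Of 16 mesoderm genes 6 reached the threshold, beside 61.7% of protein-coding genes. TWIST1, of migrating mesenchyme, led with a mean of 4.94 RPKM, ISL1, HAND2, NKX2-5, FOXC1 and TBX5 followed, and MSGN1 and PAX3 had no read. None of the 7 tested was called apart by edgeR's exact binomial test, beside 13.1% of all genes tested. At an unadjusted p under 0.05 in that test there were 0, beside 3694 of the 15299 genes tested. The list's median was 0.120 RPKM.

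Of 16 trophoblast genes 14 reached the threshold, beside 61.7% of protein-coding genes. ELF5, with 2 and 7 reads, and CGB3 did not. The list's median was 2.81 RPKM, beside 1.29 RPKM for protein-coding genes. TFAP2C, shared with germ cells, had 1251 ± 6.31 CPM, TEAD4 171 ± 4.44 CPM and GATA3 9.73 ± 0.187 CPM (SD, n = 2 each). CGA, the common alpha subunit of glycoprotein hormones, had 8.53 and 12.03 CPM, while CGB3, a beta subunit of chorionic gonadotropin with near-identical copies, had no read. CDX2 lay far below TFAP2C, TEAD4 and GATA3: GATA3 exceeded it 38.6-fold per kb over both libraries (95% exact interval, 22.8 to 71.3). Among the 14 genes tested, TP63, CGA and MSX2 were called higher in replicate 2 and KRT7, ERVW-1 and HSD3B1 lower, beside 6.78% and 6.35% of all genes tested.

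Intestinal genes, several of them known targets of CDX1 and CDX2, were nearly silent. None of the 10 reached 1 CPM in both libraries, beside 61.7% of protein-coding genes, and KRT20, GUCY2C and ISX had no read. CDH17, a CDX target, had a mean of 0.0400 RPKM (1 and 6 reads) beside 5.97 RPKM in CDX1. None of the intestinal genes had enough reads to be tested. Of 9 neural ectoderm genes 4 reached the threshold, led by NES at 28.9 RPKM and OTX2 at 6.78 RPKM, beside 61.7% of protein-coding genes.

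**Figure D4:**
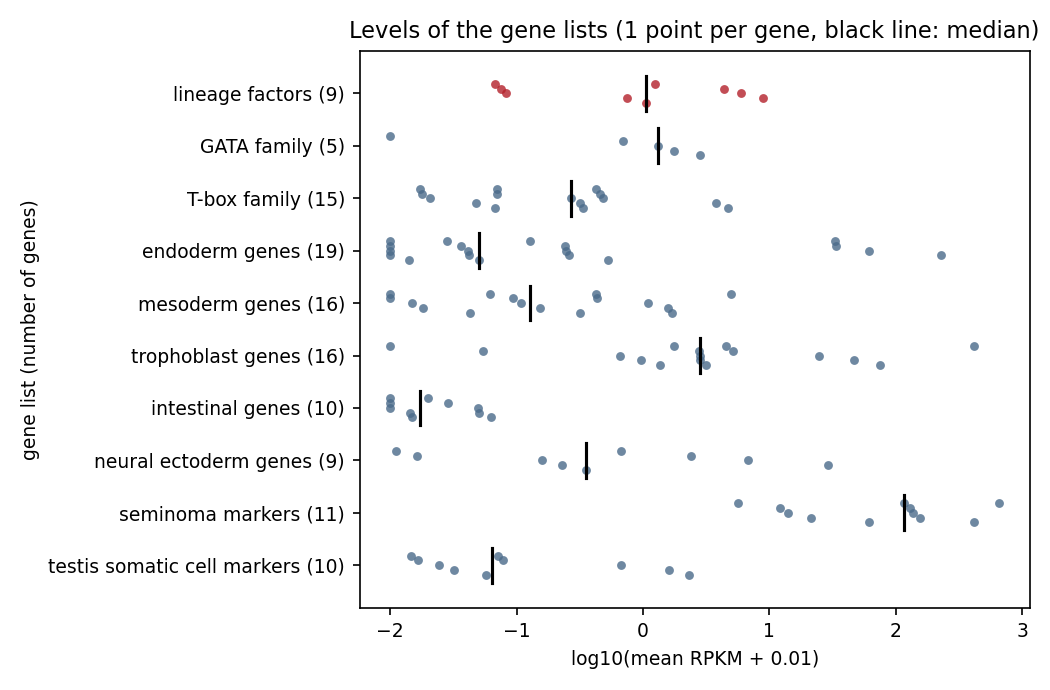
Mean level of each gene as log10 of RPKM + 0.01 (horizontal) in 10 gene lists (vertical, number of genes in parentheses), with 1 point per gene and a black line at the list's median; -2 means no read. The 9 lineage factors (red) form an upper group of 6 and a lower group of 3, and the medians run from 0.00734 RPKM for intestinal genes to 117 for seminoma markers.

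GATA4 is also made by somatic cells of the testis, so their markers were read beside it. Of 10 such markers SOX9 and AMH reached the threshold, beside 61.7% of protein-coding genes, and the list summed to 16.2 and 11.8 CPM. No marker was at 0 in both libraries, but FSHR, CYP17A1 and LHCGR had no read in replicate 1, STAR had none in replicate 2, and NR5A1 had 8 and 3. Of the 3 markers tested, SOX9 alone was called lower in replicate 2, at 7.79 and 4.68 CPM (adjusted p = 0.00063, edgeR's exact binomial test). The same call was made for 6.35% of all genes tested. AMH, at 6.01 and 5.81 CPM, and INHA were not called. Of 8 markers of blood, vessel and muscle, 2 reached the threshold, beside the same 61.7%. PTPRC and CD3E had no read, and the list summed to 4.64 and 4.82 CPM. The samples were TCam-2, an established line, and any link of these markers to the levels of GATA4, CDX1 and FOXA2 was not tested.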

How the data were processed

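Polyadenylated RNA of 2 replicate libraries of 1 group was measured, in 2 tables deposited by the authors. Trim Galore 0.6.10, STAR 2.7.11a, DESeq2 and Salmon 1.10.2 on GRCh38 are named in the submitters' processing notes, without their roles. The transcript table holds the authors' salmon TPM. The gene table is named as CPM, but its deposited signal was a read count times 1 factor per library: dividing by the smallest value above 0 gave whole reads for 100% of values in both libraries (tolerance 0.01 reads). CPM was computed from these reads, and RPKM as CPM per kb of merged exon. Merged exon lengths, coordinates and transcript-to-gene links came from GENCODE 29 on GRCh38, which held 201667 of 251955 transcripts, and symbols from a table that held all 62700 gene IDs. The annotation release of the tables is not given in the sources used here.

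A gene counted as expressed at 1 CPM in both libraries. Libraries were compared with edgeR 4.0.16 (exact binomial test, TMM sizes, filterByExpr, adjusted p under 0.05), which was also run on simulated data. The simulation drew counting noise alone, whereas the 2 libraries differed by more, so it does not measure false calls here. DESeq2 1.42.0 gave alternative size factors. Log2 ratios used a pseudocount of 1 CPM. Intervals (95% Wilson, or exact binomial for ratios) and the limit of 3 reads describe counting error alone, because PCR copies cannot be recognised without molecular identifiers. The members and the 13 gene lists were chosen with earlier results of these data known. Named genes were the 9 factors, listed genes at 1 CPM or with no read, and overlapping or nearby genes. HNF4A, CDX4, FOXA3, ZFPM2, CDH17, ELF5, SOX2 and somatic markers below 1 CPM were named after their values were seen. Some listed genes are not reported here by name. 0 columns of values were left unused.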

Additional observations from a re-analysis of the deposited data

How the results depend on the processing

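No paired analysis was possible because both libraries belong to 1 group. The count of 6 expressed factors became 3 at a threshold of 5 CPM (GATA4, CDX1 and HAND1) and 8 at 0.1 CPM, and was 6 with TPM summed per gene and without either replicate. The median level of the 9, 1.04 RPKM, ranged from 0.779 to 1.27 when each library was taken alone. The count of factors apart between the libraries, 2, became 1 when all 26504 genes with a read were tested, since more genes enter the adjustment: FOXA2 then had an adjusted p of 0.076 against 0.045, with 0.045 under both other scalings, and CDX1 stayed called in each setting. Leaving out a replicate leaves nothing to compare here. Of 54 alternatives computed, 49 kept direction and call, with counts within 1.5 times. Some of the 49 could hardly have come out otherwise, so their number does not measure robustness. The medians of single libraries were set beside the SD of those same medians, 0.344 RPKM. Restricting GATA4 to protein-coding transcripts could not change its shares, because its retained-intron transcript was at 0 TPM in both libraries. EOMES, on 9 reads and 1 read, moved from -0.39 to -1.70 in log2 ratio at a pseudocount of 0.1 CPM, which shrinks low genes less. Listed genes at the threshold, 52 of 120, became 76 at 0.1 CPM. Depth limits CDX2, TBXT and EOMES, whose order could not be told.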
